A study of Mus musculus with 2 samples.

Results

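The sites described here are places of the authors' Ptf1a peak list at which the input chromatin itself gave a narrow surplus of reads. They number 955 of the 30691 listed sites, or of the 30327 listed on chromosomes 1 to 19. They were chosen by their input reads alone. Within 250 bp of the listed position, each had 20 to 100 input reads with distinct position and strand. This was at least 2.5 times the density in the rest of the surrounding 10 kb, a quotient called the local input ratio below. They are set against 7758 listed sites on the same chromosomes whose local input ratio was 0.8 to 1.2, called flat sites. Input counts and local input ratios of both sets are therefore a description and support nothing.

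The study mapped Ptf1a on the genome of 266.6 cells, a mouse pancreatic line of strain background C57BL/6 X SJL at passage 26 that the labels liken to embryonic dorsal pancreas in its gene expression. One library came from chromatin precipitated with an antibody to Ptf1a, pooled from 2 immunoprecipitations, and the other from input chromatin with no antibody. Both came from cells fixed with 1% formaldehyde for 10 min, and chromatin had been broken to 100 to 500 bp. Each group had 1 library and no replicate, so no test between groups of samples was possible, and intervals cover counting error only. No RNA was measured, so the identity of the cells was not checked against marker genes.

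Ptf1a is a basic helix-loop-helix factor that binds E-box DNA with a class I partner and an RBPJ-type protein, and it is needed to form the pancreas and to keep acinar cells making digestive enzymes. Input chromatin is sheared and sequenced without selection for a protein. Its reads are nonetheless uneven: stretches free of tight nucleosome packing, such as active promoters and enhancers, tend to break more readily and give more short fragments, while repeated or multiplied DNA also collects extra reads. A listed binding site with raised input can thus belong to either kind of place, and accessibility itself was not measured here.

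The ChIP library held 28502488 placed reads, 25597333 of them distinct, and the input library 27959618 and 27038915. Farther than 5 kb from any listed position there were 0.850 distinct ChIP reads per distinct input read, and ChIP-to-input ratios below are scaled by that value. Reads amplified without molecular identifiers are not independent molecules.

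At the 955 raised-input sites the input count had a median of 25 reads, with quartiles of 22 and 30, against 9 (7 and 12) at the flat sites. The rest of the surrounding 10 kb held a median of 159 and 168 input reads in the 2 sets. The median local input ratio was 2.99 (quartiles 2.71 and 3.49) and the highest 20.9. A single count of 20 reads has an exact 95% Poisson interval of 12.2 to 30.9, so membership near the limits is uncertain. The lower limit of the local input ratio lay above 2.5 at 143 of the 955 sites (exact 95% interval). Just inside the limit, the site at 17576628 on chromosome 16 had 31 input reads within 250 bp and 235 around it, a ratio of 2.501 (1.66 to 3.65). Just outside, the site at 112484255 on chromosome 5 had 29 and 220. The 111 sites with ratios of 2.5 to 2.6 had a median of 62 distinct ChIP reads and the 141 with ratios of 2.4 to 2.5 had 66. Sites with 20 and with 19 input reads had 61 and 58.5. A further 1138 listed sites reached the ratio with fewer than 20 input reads and 39 with more than 100.

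**Figure D1:**
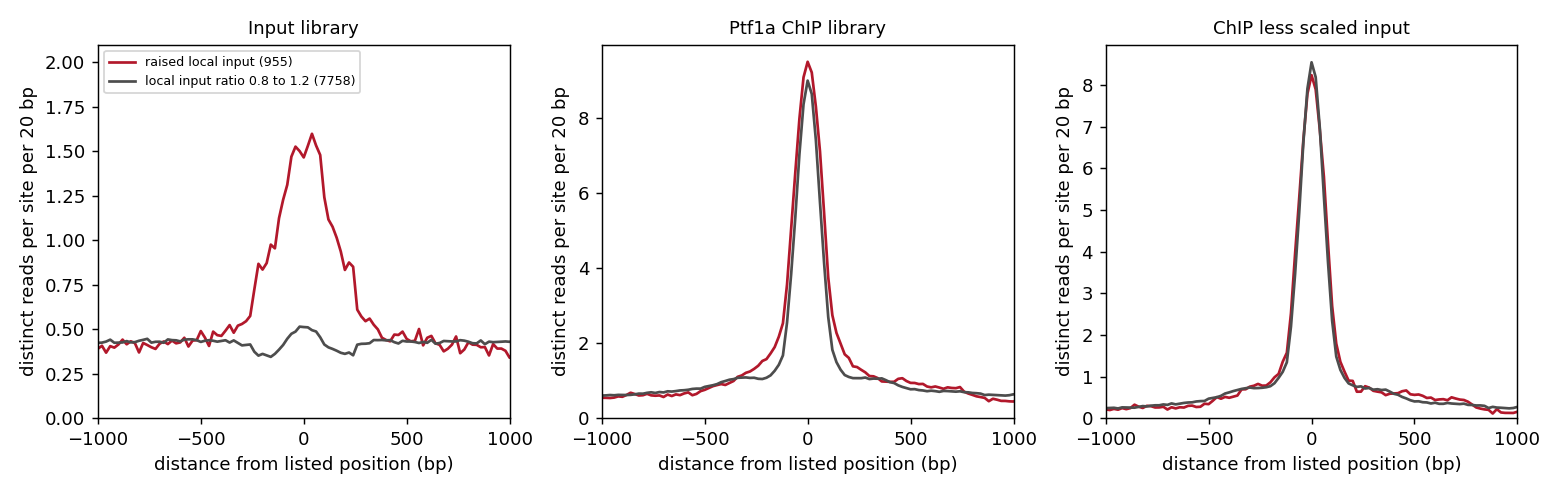
Distinct reads per site in 20 bp bins (y axis) against distance from the listed position in bp (x axis), for the input library, the ChIP library and ChIP less input scaled by 0.850. Red is the 955 raised-input sites and grey the 7758 flat sites. The input window that chose the sites ends at 250 bp, where the red input curve drops.

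The choice did not use the layout of input reads inside the window directly. Its window was centred on the listed position, however, so it favours a surplus of input reads centred there. Of the input reads within 250 bp of raised-input sites, 50.9% lay within 100 bp (Wilson 95% interval 50.3 to 51.5%), where an even spread would put 40.1%. At flat sites the share was 46.5% (46.2 to 46.9%), and over all listed sites of chromosomes 1 to 19 it was 47.5%. Input reads thus lay nearer the listed Ptf1a position than an even spread in both sets. Of the ChIP reads of raised-input sites, 71.5% lay within 100 bp. Nothing is read from the gap in input share between raised-input and flat sites. The input share was 53.7% at sites of height 30 to 49 and 46.1% (43.7 to 48.4%) at sites of height 200 to 396, close to the 47.6% (45.4 to 49.7%) of flat sites of that height.

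Input reads of the 2 strands were offset in the same order as ChIP reads, but less sharply. At raised-input sites, the 5′ ends of input reads peaked 40 bp upstream of the listed position on the plus strand and 20 bp downstream on the minus strand. Those of ChIP reads peaked 60 bp upstream and 80 bp downstream. Of the plus-strand reads within 500 bp, 56.4% of input and 68.3% of ChIP reads lay upstream. Above the flank level, the mean positions of input reads on the 2 strands lay 113 bp apart, against 122 bp for ChIP reads. The choice counted input reads after each 5′ end was moved 73 bp downstream, so it favours such an offset by itself. At flat sites 49.8% of plus-strand input reads lay upstream. Nothing is read from the offset of input reads. Plus-strand reads were 49.7% of input reads within 500 bp (49.2 to 50.2%). Both strands therefore contributed about equally.

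Repeated input reads, meaning copies of a read already seen at its position and strand, were more frequent at raised-input sites than at flat sites. They were 10.2% of input reads there (9.85 to 10.5%) and 3.27% at flat sites (3.15 to 3.39%), while over all listed sites they were 8.07%. Repeats were most frequent at sites with the greatest local input ratios. Repeated reads were 5.59% of input reads at the 481 sites with ratios of 2.5 to 3, 5.15% at the 341 with ratios of 3 to 4, 10.1% at the 83 with ratios of 4 to 5 and 38.5% at the 50 with ratios of 5 or more. At 8 sites at least 50% of the input reads were repeats.

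The first comparison was of ChIP reads. The typical raised-input site was no taller than the typical flat site, but the set held more of the tallest Ptf1a peaks. The authors' peak height, a whole number from 20 to 396 whose scale is not given in the sources used here, had a median of 35 in both sets. The median number of distinct ChIP reads within 250 bp was 60 (quartiles 42 and 115) against 56 (39 and 97), and within 100 bp it was 42 in both. Against the 185 flat sites with at least 20 input reads the order turned, with a median of 73 at those flat sites. They lay amid high input, with a median of 409 input reads in the rest of 10 kb, against 159 at raised-input sites. Less scaled input, their median was 27.0 ChIP reads, against 36.0 at raised-input sites. The 95th percentiles of ChIP reads were 323 at all raised-input sites and 232 at all flat sites. Sites are not replicates of a condition, so no test between the sets was made.

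Heights of 200 or more were reached by 65 of the 955 raised-input sites, or 6.81% (Wilson 95% interval 5.38 to 8.58%). Among flat sites it was 192 of 7758, or 2.47% (2.15 to 2.84%), and among all listed sites 3.05%. At heights of 100 to under 200 the shares were 10.4% and 9.73%, at 50 to 99 they were 17.8% and 20.9%, and at 20 to 29 they were 38.6% and 38.5%. The surplus therefore lay in the top class. The share in that class was 1.62% (0.553 to 4.66%) in the flat sites with at least 20 input reads, 2.33% in flat sites whose surrounding input lay in the central 90% of that of the raised-input sites, and 7.07% in the raised-input sites with ratios under 5.

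The median input count was 26, 25.5, 24, 25 and 26 from the lowest to the highest class, values held near the lower limit of 20 by the choice of sites. Over all listed sites of chromosomes 1 to 19 it was 11, 11, 11, 12 and 14. Over all listed sites of chromosomes 1 to 19, the share with a height of 100 or more went from 8.0% (6.73 to 9.47%) at local input ratios under 0.5 to 12.2% at 0.8 to 1.2, 15.8% at 2 to 2.5 and 16.8% (14.2 to 19.7%) at 3 to 4. At ratios of 5 or more it was 12.1% (6.89 to 20.4%), over 91 sites. The share thus grew with the ratio up to 1.6 to 2, where it was already 15.8%, and changed little from there to 4. Repeated reads were 35.2% of ChIP reads at raised-input sites and 25.5% at flat sites, and their part in the heights was not tested.

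**Figure D2:**
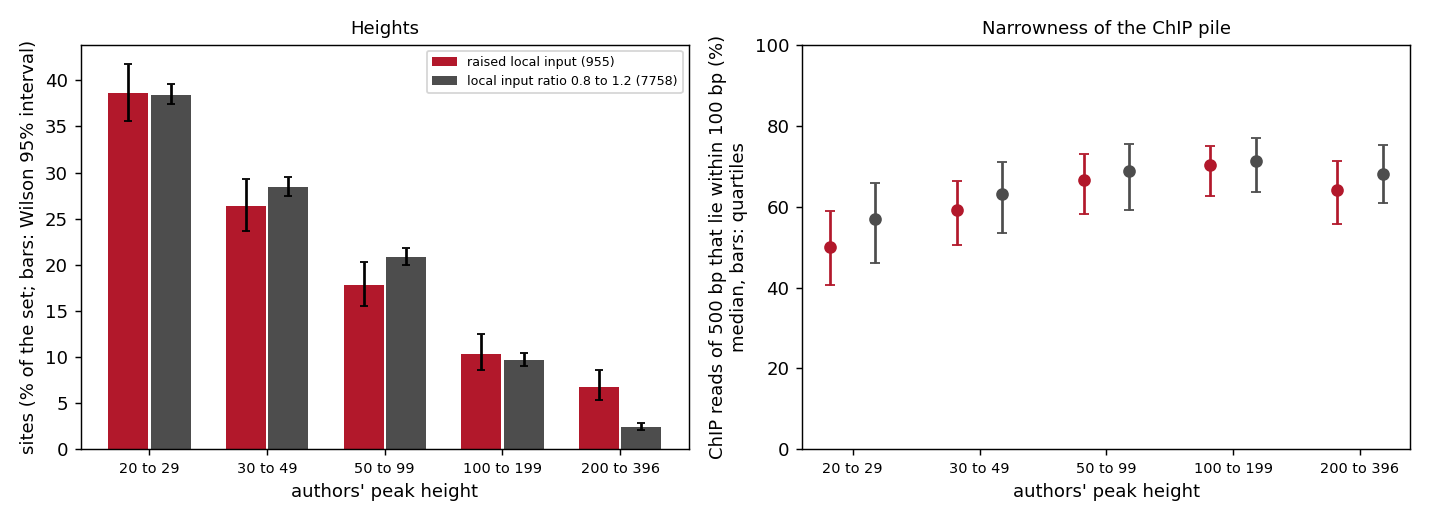
Left, percent of sites (y axis, from 0) in 5 classes of the authors' peak height (x axis), with Wilson 95% intervals. Right, percent of the distinct ChIP reads within 500 bp that lay within 100 bp (y axis), as medians with quartile bars, by height class. Red is the 955 raised-input sites and grey the 7758 flat sites: the red bar is the taller one at heights of 200 to 396 (6.81% against 2.47%), and the red medians lie lower in each class.

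The 10 raised-input sites with the most distinct ChIP reads, outside chromosome 18, show the tall end. First was the site at 4735410 on chromosome 17, with 654 distinct ChIP reads (2601 in all) and 24 input reads within 250 bp and a height of 384. Its scaled ratio of ChIP to input was 32.0 (exact 95% interval 21.3 to 50.4). Next came 135767253 on chromosome 5 with 568 ChIP and 42 input reads, and 54068053 on the same chromosome with 549 and 36. Even at 42 input reads, the second site had 15.9 times the scaled input (11.6 to 22.3).

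The other 7 had 490 to 533 distinct ChIP reads and 20 to 30 input reads. They were 86817257 on chromosome 16 (533 and 21), 89844624 on chromosome 1 (530 and 27), 26080970 on chromosome 2 (529 and 26), 97164819 on chromosome 1 (519 and 20), 118512128 on chromosome 10 (513 and 29), 38337429 on chromosome 15 (507 and 30) and 101020092 on chromosome 6 (490 and 22). Heights among the 10 ran from 271 to 384 and scaled ratios from 15.9 to 32.0. Few of their input reads were repeats: with all reads counted the input numbers were 21 to 45, against 20 to 42 distinct. At 5 of the 10 another listed site lay within 1 kb.

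At the other end were sites whose ChIP count hardly exceeded the input count. The 5 raised-input sites with the fewest ChIP reads had 23 to 26 distinct ChIP reads and 20 to 25 input reads, at heights of 20 to 22. They were 87391649 on chromosome 1 (23 ChIP and 20 input reads), 11683145 on chromosome 15 (23 and 22), 94290838 on chromosome 14 (25 and 21), 14933891 on chromosome 5 (26 and 25) and 19730977 on chromosome 8 (26 and 22). None of these passed the test described next, and the interval of each ratio includes 1.

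ChIP was compared with each site's own raised input by an exact binomial test over all 30691 listed sites (Benjamini-Hochberg adjusted p under 0.05). More ChIP than input reads were called at 748 of the 955 raised-input sites (78.3%), beside 97.4% of all listed sites and 99.05% of flat sites. Fewer ChIP reads were called at 5, beside 0.202% of all listed sites, and 202 did not pass. The choice of sites by high input lowers these ratios and calls, so nothing is read from the contrast. Set against the input density of the rest of the 10 kb, all 955 had more ChIP reads than that density, as did 99.2% of flat sites. Both sets came from the authors' ChIP peak list, and each raised-input site had at least 23 ChIP reads within 250 bp. Such shares were therefore close to certain beforehand, and nothing is read from them either.

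Ratios within the set were widely spread, with a median of 2.68 and quartiles of 1.76 and 5.45. There were 40 sites with a ratio under 1 and 282 with a ratio of 1 to 2, at median heights of 26 and 23. A further 376 had ratios of 2 to 5 and a median height of 37. The 147 sites with ratios of 5 to 10 had a median height of 87, and the 110 with ratios of 10 or more had 212. By height, 197 of the 369 sites of 20 to 29 were called higher in ChIP, 219 of 252 at 30 to 49, 168 of 170 at 50 to 99, and all 99 and all 65 in the top classes. The shares called over all listed sites were 94.9%, 98.7%, 98.7%, 99.6% and 99.4% from the lowest to the highest class. The set thus joins tall peaks with low peaks, among them sites whose ChIP reads are close to input. From the lowest to the highest height class, median ChIP counts rose from 40 to 388, while median input counts stayed at 24 to 26. The rise of height with the ratio was therefore largely built in by the choice, and nothing is read from it.

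**Figure D3:**
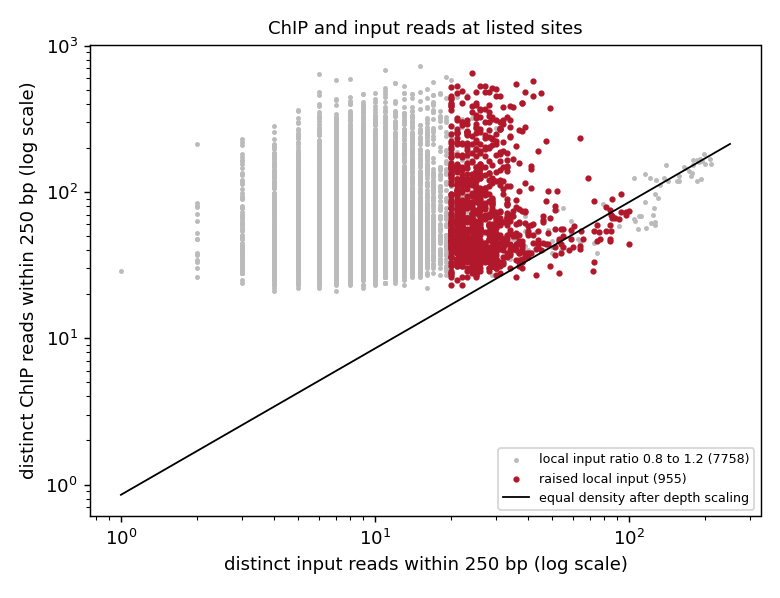
Distinct ChIP reads within 250 bp (y axis, log scale) against distinct input reads within 250 bp (x axis, log scale), 1 point per site, red for the 955 raised-input sites and grey for the 7758 flat sites. The line marks equal density after scaling by 0.850: most red points lie above it, and those with the most input reads lie near it.

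At the sites with the greatest local input ratios, ChIP counts lay mostly at the input level. The same input count enters both ratios, so a high local input ratio favours a low ChIP-to-input ratio. Median input counts were 46 at local input ratios of 5 or more and 25 at 2.5 to 3. Nothing is read from this order. The highest was 100560970 on chromosome 13, with 86 distinct input reads, 78 in the rest of 10 kb, and 90 distinct ChIP reads, a scaled ChIP-to-input ratio of 1.23 (0.906 to 1.67). At 14306944 on chromosome 8 there were 85 input and 54 ChIP reads, and at 45724474 on chromosome 19 there were 93 (179 with repeats) and 96. None of these 3 passed the test.

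At 30754891 on chromosome 6 the ChIP count of 29 was called lower than the 72 input reads (ratio 0.474, 0.297 to 0.738). At 33015908 on chromosome 5 the 64 ChIP reads were called higher than the 46 input reads (ratio 1.64, 1.10 to 2.44). The second of these shares reads with another raised-input site 151 bp away. Over the 50 sites with ratios of 5 or more, the median scaled ratio was 1.26, 18 were called higher in ChIP and 4 lower, and 4 had a height of 100 or more. At ratios of 2.5 to 3 it was 3.06, with 397 of 481 called higher and 88 of height 100 or more. The shares called higher, 36% and 82.5%, stand beside 38.5% and 92.2% of all listed sites of chromosomes 1 to 19 in those ratio ranges.

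When the scaled input was taken off the ChIP count, the order of the medians turned. Raised-input sites then had a median of 36.0 distinct ChIP reads (quartiles 17.2 and 94.1) and flat sites 47.8 (30.9 and 87.8). The 95th percentiles kept their order, at 299.8 and 224.5. In the class of 100 to under 200 the medians were alike, at 178.0 and 178.5, and at 200 to 396 they were 369 and 321. Input chosen for being high overstates what should be taken off, by an amount that was not estimated.

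The second comparison was of the width of the ChIP pile. ChIP reads were spread a little more widely at raised-input sites. Of the distinct ChIP reads within 500 bp, a median of 58.5% (quartiles 46.8 and 68.3%) lay within 100 bp, against 63.0% (52.2 and 71.7%) at flat sites. The distance from the 10th to the 90th percentile of read positions was 421.5 bp and 409.4 bp. By height class this distance was shorter at raised-input sites at heights of 50 to 99 (337.3 against 346 bp) and longer in each other class. The quartile ranges of the sets overlap broadly.

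The share was the lower one in each height class: 50% against 56.8% at heights of 20 to 29, 59.2% against 63.1% at 30 to 49, 66.6% against 68.8% at 50 to 99, 70.2% against 71.2% at 100 to under 200 and 64.0% against 68.0% at 200 to 396. The gap was widest at the lowest heights. At sites with no listed neighbour within 1 kb the medians were 62.1% and 66.0%, a gap of like size. Less the scaled input, the medians over all sites were 75.2% (57.8 and 88.8%) and 75.1% (62.5 and 84.8%). These near-equal values cover gaps in both directions by height class. The share was lower at raised-input sites at heights of 20 to 29 (71.2% against 74.1%) and of 200 to 396 (66.6% against 70.3%). It was higher at 30 to 49 (77.8% against 75.3%), at 50 to 99 (80.02% against 76.5%) and at 100 to under 200 (76.5% against 75.9%). Of the raised-input sites 42 had no ChIP reads left over after that step and gave no value, as did 37 flat sites.

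Summed profiles stayed wider at raised-input sites, less input too. At 50% of its height above the flanks, the ChIP pile was 168 bp wide at raised-input sites and 140 bp at flat sites, and 157 and 140 bp less input. For sites with no neighbour within 1 kb and heights of 20 to 29, the widths were 171 and 132 bp as counted and 139 and 133 bp less input. Less input they were 141 and 130 bp at heights of 30 to 49, 140 and 128 bp at 50 to 99, and 147 and 144 bp at 100 to under 200. At heights of 200 to 396 they were 191 and 176 bp as counted and 188 and 176 bp less input, over 44 and 110 sites. Over all sites of that class, median ChIP counts within 250 bp were 388 and 331. Distinct counting takes each position and strand once, which caps the centre of a pile. No listed site exceeded 397 distinct ChIP reads within 100 bp. The part of this cap in the widths and shares of that class was not tested. After input was taken off, raised-input sites had the wider summed pile in each of the 5 classes, by a smaller margin than as counted. Each of those margins was narrower than the 20 bp bins of the profiles and has no interval. The share per site less input went the other way at heights of 30 to under 200, so no steady widening is read from the profiles. The input pile of all raised-input sites was itself 309 bp wide. That width is shaped by the window of 250 bp on either side that chose the sites.

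From 100 to 250 bp on either side, ChIP reads stood at 10.4 per 100 bp per raised-input site and 7.15 per flat site. Less scaled input these were 6.24 and 5.57. In the central 100 bp on either side they were 37.9 and 33.0 as counted, and 31.5 and 30.9 less input.

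The third comparison was of neighbours. Another listed site lay within 1 kb of 208 raised-input sites, or 21.8% (19.3 to 24.5%), of 23.0% of flat sites (22.1 to 24.0%) and of 21.7% of all listed sites. Within 12.5 kb it was 60.1% (57.0 to 63.2%), 64.2% (63.1 to 65.2%) and 60.5%. The sets thus differed by little at either distance. At 300 bp it was 6.07% (4.73 to 7.77%) against 4.31% (3.88 to 4.78%), a range at which neighbours share reads. No neighbour within 100 kb was found for 44 raised-input sites, or 4.61%, and for 5.18% of flat sites.

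Of the 160 raised-input sites with a listed neighbour within 600 bp, 34 had one that was itself a raised-input site, beside 955 raised-input sites among all 30327 listed. Windows of sites closer than 500 bp overlap and share input reads. Counting those within 500 bp of each other once left 940 places, and joining them within 12.5 kb left 904, of which 44 held 2 to 4.

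**Figure D4:**
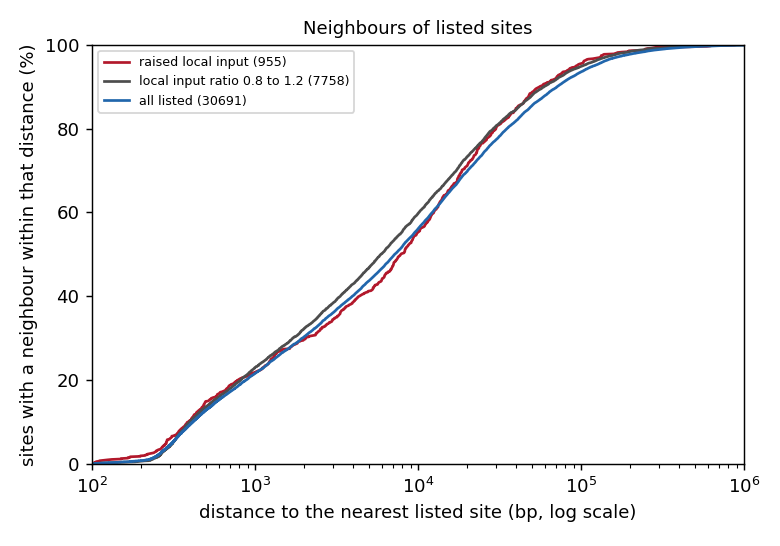
Percent of sites (y axis) with another listed site within a given distance in bp (x axis, log scale), for the 955 raised-input sites (red), the 7758 flat sites (grey) and all 30691 listed sites (blue). The curves run close together, with the red curve the lowest near 5 kb (41.3% against 46.9% for flat sites).

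The fourth comparison was of grouping, with listed sites joined where neighbours lay within 12.5 kb. Groups of 5 or more held 167 raised-input sites, or 17.5% (15.2 to 20.0%), against 21.6% of flat sites (20.7 to 22.6%) and 18.7% of all listed sites. Flat sites with like surrounding input were at 18.1% (17.2 to 19.1%), so the gap was smaller once the depth of the neighbourhood was alike. Sites alone in their group were 39.9% and 35.8%. The share in groups depended on the limits of the choice: it was 12.4% at ratios of 3 or more and 30.7% with at least 30 input reads, a value above that of flat sites.

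A few groups held 3 or more raised-input sites, most of these groups with low peaks. On chromosome 10 from 57686837 to 57694696, all 4 listed sites were raised-input sites, with 43 to 84 input reads and heights of 23 to 33. On chromosome 1 from 85071880 to 85094330 it was again 4 of 4, with 26 to 60 input reads and heights of 20 to 25. On chromosome 8 from 19953389 to 19986160, 4 of 19 were, and input reached 129 reads. In these 3 groups the heights reached at most 67. A different case was the group of 25 listed sites on chromosome 11 from 74277864, of which 3 were raised-input sites and heights reached 234. The other 2 groups with 3 or more raised-input sites lay on chromosome 1 from 85247311 (3 of 8) and on chromosome 5 from 15186597 (3 of 4), with heights up to 48 and 39. Attention was given to these 6 groups because of their counts.

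Chromosomes differed in the share of their listed sites that had raised input. The highest share was 4.61% on chromosome 10 (77 of 1672, 3.70 to 5.72%), followed by 4.06% on chromosome 16 and 3.797% on chromosome 5, which held the most, 101. The lowest were 0.712% on chromosome 12 (8 of 1123, 0.361 to 1.40%), 1.40% on chromosome 13 and 1.72% on chromosome 18. Those 3 also had the fewest input reads around listed sites, with medians of 112, 107 and 121 in the rest of the 10 kb. Its part in the shares was not tested. Chromosome 15, with a median of 240, had 3.23%. The first 3.3 Mb of the chromosomes, at the centromere end, held 4 raised-input sites, 55 flat sites and 193 of all listed sites.

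The last comparison asked how many places with the same input pattern are listed at all. Scanned every 50 bp, chromosomes 1 to 19 held 38520 stretches that met both limits on input reads. A listed Ptf1a site lay within 250 bp of 2072 of them, or 5.38% (5.16 to 5.61%). Counted from the best centre alone it was 4.58%, against 0.710% of all scanned centres with a local input ratio of 0.8 to 1.2 and 0.768% of those with like surrounding input. Listing was thus more frequent at raised input, and yet most such stretches were not listed. The share listed was 5.746% at ratios of 2.5 to 3 and 3.53% at 5 or more.

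The ChIP library gave a reading of the same places that the choice did not use. At the 30466 stretches more than 5 kb from any listed site, the local density ratio computed from ChIP reads had a median of 1.75 (quartiles 1.28 and 2.37). At flat centres equally far from listed sites, with like surrounding input, it was 0.948 (0.632 and 1.33). It exceeded 1 at 87.7% of the stretches and 45.9% of the flat centres, and reached 2.5 at 21.4% and 1.98%. The raised density of input therefore recurred in part in the other library where no Ptf1a peak was listed. The median of 1.75 was below the 3.16 that the stretches had in the input, by which they were chosen. The cause of this was not tested.

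**Figure D5:**
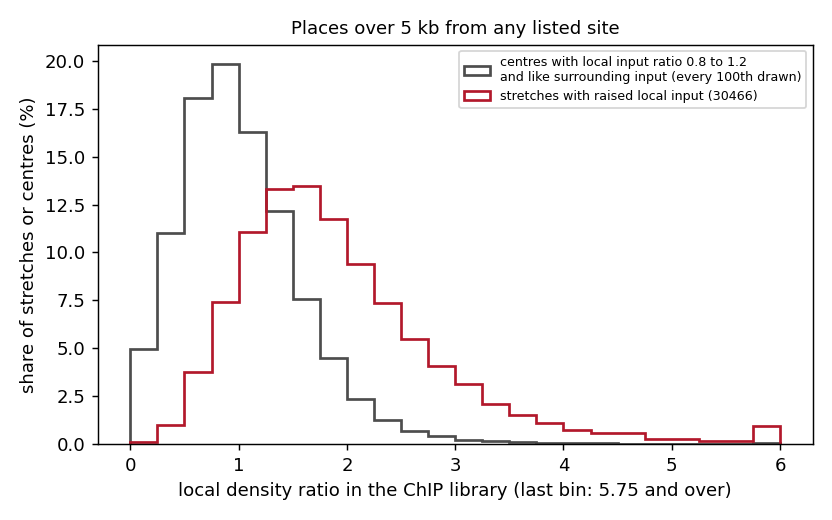
Share of places in percent (y axis) by their local density ratio in the ChIP library (x axis, the last bin holding all greater ratios), for the 30466 raised-input stretches (red) and for flat centres with like surrounding input (grey, every 100th drawn), all more than 5 kb from any listed site. The red distribution has its median at 1.75 and that of the centres is 0.948.

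At the 2072 stretches with a listed site the median ChIP count within 250 bp of the best centre was 54 (quartiles 37 and 99), and at those without one within 5 kb it was 11 (8 and 14). Of the latter, 86 reached 50 distinct ChIP reads.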

How the data were processed

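Per the labels, 1 Ptf1a ChIP library and 1 input library of 266.6 cells were sequenced; ChIP fragments of 100 to 400 bp were isolated from a gel. The authors deposited reads as counts, 1 line and a value of 1 per placed read of 37 bp, placed on mm9 according to the submitters' processing notes. Neither aligner nor read filters are named in what was used here. The authors also deposited a peak list with a signal value per span of 100 bp, per the file headers; its caller and scale are likewise unnamed.

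Each 5′ end was moved 73 bp downstream, and reads sharing position and strand were counted once unless stated. For each listed site, distinct ChIP reads within 250 bp were tested against input reads with an exact two-sided binomial test, with Benjamini-Hochberg adjustment across the 30691 sites (Python 3.11.15, scipy 1.17.1). The test and the choice of sites were tested on simulated data. Shares have Wilson 95% intervals. Sites named are the 10 with the most and the 5 with the fewest ChIP reads, the 5 with the greatest local input ratio, and those nearest the limits; sites on chromosome 18 are counted but not named. The sites, lists and limits were chosen with earlier results of these data known. Gene annotation and genome sequence of build mm9 were not used here.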

Additional observations from a re-analysis of the deposited data

How the results depend on the processing

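Raised-input sites and flat sites were chosen anew under 6 settings. With ratios of at least 2, 1869 sites were chosen and included all 955, and with 5′ ends not moved, 873 were chosen and 703 were shared. The share with a height of 200 or more stayed between 5.78% and 7.22% under all 6, settings applied to it after the data were seen. With at least 30 input reads the median ChIP count was 56, the share called higher in ChIP 54.9%, the share of ChIP reads within 100 bp 52.2%, and the shares with a neighbour within 1 kb and in groups of 5 or more 30.7% each, both above flat sites. With ratios of at least 3 these were 55, 74.1%, 58.1%, 18.8% and 12.4%. With ratios of at least 2, 82.2% were called and 21.7% lay in groups. With all input reads used for the choice, 80.9% were called. The cause was not tested.

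Other settings redefine the measure. The median ChIP count was 70 with all reads, 42 within 100 bp and 36.0 less input. The share called was 82.3% within 100 bp and 100% against the input density around the site. The share of reads within 100 bp was 45.9% with 5′ ends not moved (flat sites 47.8%), 62.1% without neighbours, 68.5% of reads within 300 bp, 75.2% less input and 66.6% at heights of 50 to 99. Neighbours within 600 bp were found for 16.8% and within 12.5 kb for 60.1%. Groups of 5 or more joined within 5 kb held 5.45%, and groups of 3 or more 38.7%. Of the raised-input stretches, 4.78% were listed at ratios of at least 3, 8.80% with at least 30 reads and 9.02% within 1 kb. Without chromosome 5, which held the most raised-input sites, the values were 61 reads, 78.8% called, 59.1% within 100 bp, 21.5% with a neighbour and 17.9% in groups. A count of 25 input reads has an interval of 16.2 to 36.9, which limits what single sites can show. No paired analysis was possible because each group had 1 library. Sequence content was not run, for want of mm9 sequence here.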
